A study of Mus musculus with 6 samples.

Results

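The proteasome subunit genes were read in TM3 cells, an immortalised mouse line derived from testicular Leydig cells, the cells between the seminiferous tubules that make androgen. The members are all protein-coding mouse genes whose symbols start with Psma, Psmb, Psmc, Psmd, Psme, Psmf or Psmg and a number, 51 in all, named through the accessions of the array's probes. Of these, 50 had a probe on the array (76 of 56605 probes) and 37 could be tested, among 13138 genes tested. In 11 others the spots were well above background but too many were marked as outliers. Psma8 and Psmb11 were never well above background, and Psme2 had no probe matched by accession. The rule also takes in Psmc3ip, a partner in meiotic recombination, and Psme3ip1, a protein that binds Psme3, which are not parts of the proteasome and are given apart.

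One group of 3 samples received 4-nitrophenol (nPNP or PNP in the labels), a nitrated phenol, at 10 µM for 24 h, and the other group of 3, called controls here, received 0 µM. Total RNA of each sample was hybridised to its own Agilent array with 1 colour, and all 6 arrays lay on 1 slide. Everything was measured in 1 cell line, and the labels do not say whether replicates were separate cultures, so the p-values speak only of how far these 6 samples scatter, and that scatter may be technical. Of the Leydig markers, Star and Nr5a1 were well above background on all 6 arrays and Cyp17a1 on 5, while Cyp11a1 and Lhcgr were so on none. In bulk RNA, fewer cells of a type and less RNA per cell cannot be told apart.

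The proteasome is the protease that breaks down proteins marked with ubiquitin. Its barrel, the core particle, is built of stacked rings of alpha subunits (Psma), which gate the entry, and beta subunits (Psmb), some of which cut peptides. The regulatory particle caps the barrel: its ATPases (Psmc) unfold the substrate and its other subunits (Psmd) bind ubiquitin and remove it. When interferon acts on cells, Psmb8, Psmb9 and Psmb10 replace the constitutive catalytic subunits and form the immunoproteasome, and when proteasomes are inhibited the transcription factor NRF1, product of Nfe2l1, raises the subunit genes together.

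NRF1 and the related NRF2 bind the antioxidant response element, whose core letters are TGACNNNGC. Promoter windows of RefSeq (build GRCm38.p6, 250 bases before to 50 after the start) were searched for these letters on both strands for 43 members with 47 windows. The TGACNNNGC core was in 6 of 47 windows (12.8%), against 12.4% of all 32851 windows. The core of the interferon-stimulated element (GAAA, any 2 bases, GAAA), searched in the same way, was in 5 of 47 (10.6%: Psmb3, Psmd4, Psmd9, Psme1 and Psmg4), against 3.44%. Stretches of 60 bases are printed for all 6 members with TGACNNNGC, since these letters are what NRF1 and NRF2 are known to bind. They run 5′ to 3′ along the gene, with the matched letters in capitals. A match is a description of the letters and not a site. In Psmc6, Psmd12 and Psme4 the match is on the opposite strand, and in Psme4 it runs across the start. The stretches lie at chr14:54618008-54618067 (minus strand) for Psmb5, chr11:70525297-70525356 (plus strand) for Psmb6, chr14:45329574-45329633 (plus strand) for Psmc6, chr11:107479278-107479337 (plus strand) for Psmd12, chr5:123228130-123228189 (plus strand) for Psmd9 and chr11:30771717-30771776 (plus strand) for Psme4.
Psmb5: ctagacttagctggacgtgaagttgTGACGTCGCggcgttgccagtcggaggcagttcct
Psmb6: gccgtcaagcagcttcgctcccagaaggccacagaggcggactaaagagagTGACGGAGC
Psmc6: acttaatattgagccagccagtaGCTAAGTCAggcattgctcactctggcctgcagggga
Psmd12: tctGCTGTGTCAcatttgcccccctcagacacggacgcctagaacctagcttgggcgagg
Psmd9: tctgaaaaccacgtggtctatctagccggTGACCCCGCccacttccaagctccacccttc
Psme4: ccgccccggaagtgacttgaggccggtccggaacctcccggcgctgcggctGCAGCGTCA

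None of the 37 tested proteasome genes passed the test between PNP samples and controls. With limma and Benjamini-Hochberg adjustment over all 13138 genes, 0 members had an adjusted p below 0.05, as in all genes (0% called), and the smallest adjusted p of a member was 0.789, for Psmb3. At an unadjusted p below 0.05 there were also 0 members, where 6.52% of all genes stood. The median log2 difference of the members was 0.051, against 0.043 over all genes, and single members ran from -0.19 for Psmg3 to 0.21 for Psmb3. All signals are the scaled log2 signal, which is the log2 processed signal minus the 75th percentile of its array, and all differences are PNP minus control on that scale.

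The intervals of the tested members were narrow in the reported fit. For all 37 tested members the 95% interval of the difference lay within 1.5-fold either way, as it did for 11089 of 13138 genes. The outermost interval ends were -0.43 for Psme3ip1 and 0.43 for Psmb3, which are ratios of 0.740 and 1.35, and 24 members differed by less than 0.1. Their spread between replicates was small: the median SD was 0.11 in PNP samples and 0.073 in controls (n = 2 or 3 values each), against 0.15 and 0.10 over all genes. The number of arrays, 3 a group, limits this precision. The intervals rest on the scatter between these samples, which may be technical, and take the scaling between arrays as given. The 11 members left out for outlier spots have no interval in this fit.

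**Figure D1:**
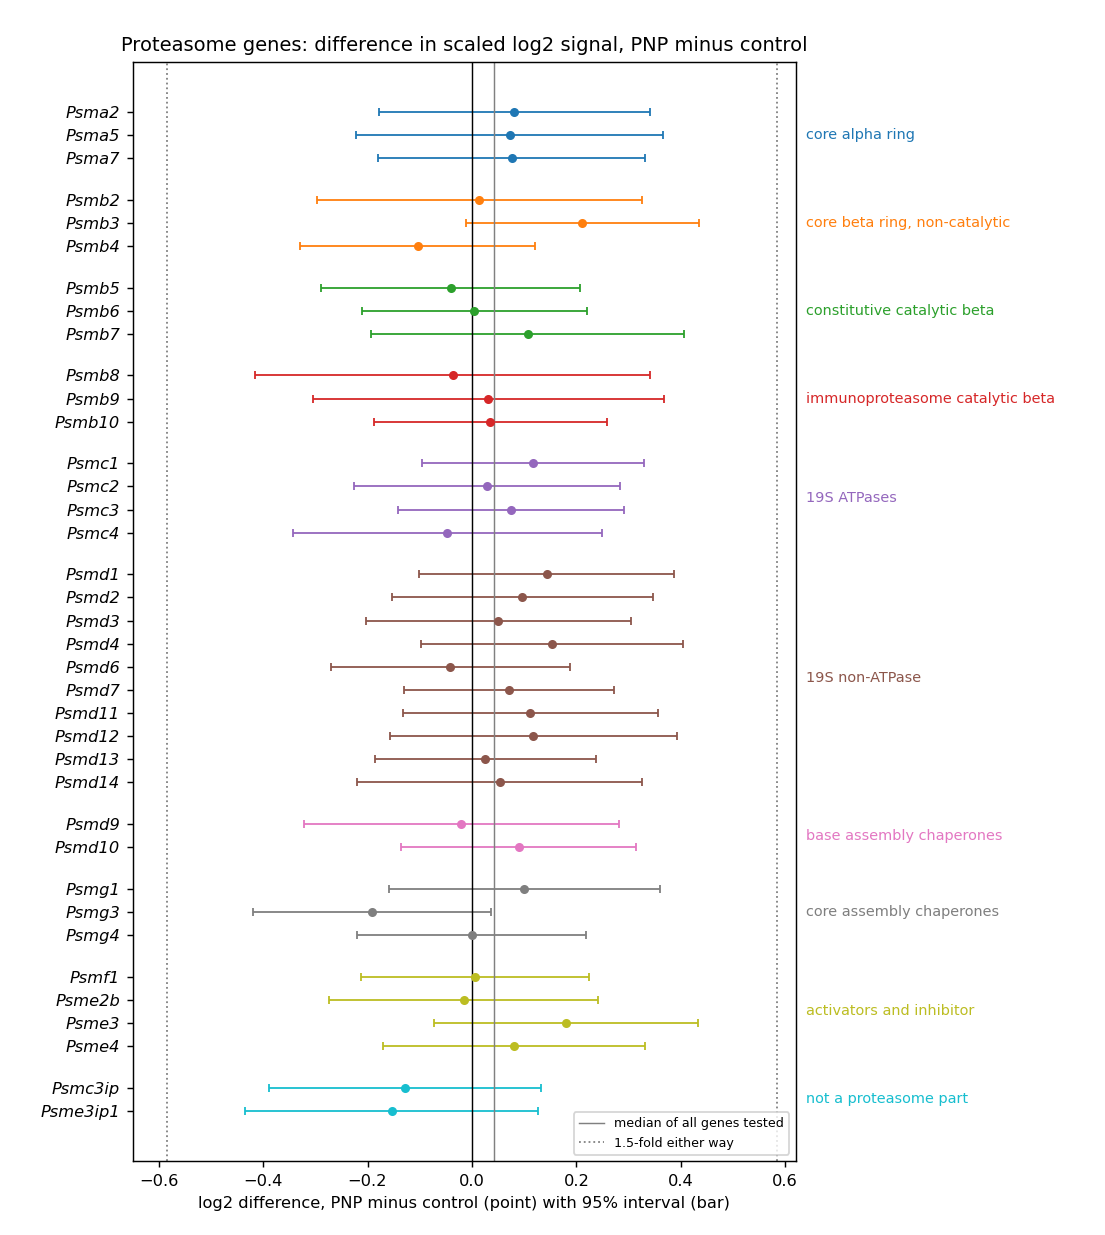
The log2 difference in scaled signal (horizontal axis, PNP minus control) is shown for the 37 tested members, grouped by role, as points with 95% intervals. Every interval lies inside the dotted lines that mark 1.5-fold either way, and every interval includes 0.

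Of the 37 tested members 26 had a positive difference (70.3%), against 63% of all genes. Which sign prevailed hung on the scaling between arrays: 17 of 37 were positive with median scaling, 15 with quantile normalization, and the authors' deposited normalized values likewise gave 15. Over all genes these settings gave 44.2%, 53.7% and 53.5% positive. Relative to the median of all genes the members' median was 0.0080 with the 75th percentile, 0.0068 with median scaling, -0.025 with quantile normalization and -0.019 in the table the authors deposited. Without PNP replicate 1 the members' median was 0.014, with 0 calls.

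PNP replicate 1 stood apart from the other arrays for these genes. Over the 22 members with a value on every array, the median signal relative to each gene's control mean was 0.19, 0.028 and 0.011 on the PNP arrays, against 0.048, -0.046 and -0.030 on the controls. PNP replicates 2 and 3 thus lay within the range of the controls. The same quantity over 11110 genes was 0.11, 0.021 and 0.035 on the PNP arrays, against 0.040, -0.017 and -0.023. PNP replicate 1 was the highest array for 14 of the 22 members (63.6%), and for 36.9% of all genes. It also had the lowest share of spots well above background (59.9%, with 61.8% to 62.6% on the others) and the lowest 75th percentile of processed signal (4503 intensity units, with 5034 to 5798 on the others). The part of these array measures in the members' values was not tested.

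Spots of proteasome genes were marked as outliers more often on PNP arrays than on controls. Of the 76 spots, 31, 22 and 19 were marked on the PNP arrays and 12, 9 and 8 on the controls, all as non-uniform. That is 25% to 40.8% of spots on PNP arrays and 10.5% to 15.8% on controls and, of all spots, at most 13.2% on PNP arrays and at most 9.07% on controls. Among all spots well above background the shares were 18.5% to 21% on PNP arrays and 10.6% to 14.5% on controls, so the members lay above these on PNP arrays and close to them on controls. As a result 14 of the 37 tested members lacked a value on a PNP array, 9 of them on PNP replicate 1, and 1 lacked one on a control array. With the marked spots kept, 48 members were tested, 0 passed, and their median was 0.050, against 0.035 over all genes. Of these members 38 were positive (79.2%), against 60.4% of all genes.

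**Figure D2:**
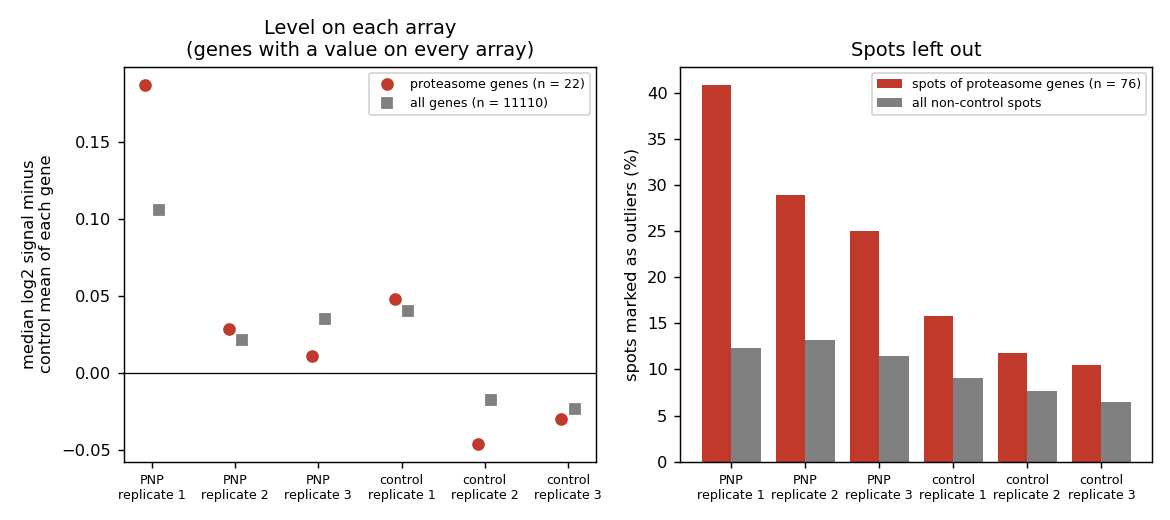
Left, the median log2 signal relative to each gene's control mean on each array, for 22 proteasome genes and 11110 genes. Right, the percentage of spots marked as outliers. PNP replicate 1 is highest on the left at 0.19 and on the right at 40.8%.

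No tested alpha subunit passed, and all 3 had small positive differences. Psma2 had scaled log2 signals of 3.23, 2.99 and 3.02 in PNP samples, against 3.12, 2.86 and 3.01 in controls, a difference of 0.082 (95% interval -0.18 to 0.34, limma adjusted p = 0.951). The groups overlapped, with PNP replicate 1 highest and control replicate 2 lowest. Psma7 had 3.36 and 3.29 in PNP replicates 2 and 3, against 3.31, 3.16 and 3.28 in controls, with a difference of 0.076 (95% interval -0.18 to 0.33, limma adjusted p = 0.951) and overlapping groups. Psma5 differed by 0.073 (SE 0.12), so that the 3 tested alpha subunits ran from 0.073 to 0.082, and Psma2 and Psma7 turned slightly negative in the authors' values. Psma1, Psma3, Psma4 and Psma6 were left out for outlier spots. With those spots kept, they differed by 0.066, 0.068, 0.10 and 0.054, and the 7 members of the ring had a median of 0.082.

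Psma4 shows what a marked spot can carry. With marked spots kept, 1 of its 4 probes read 1.98 on PNP replicate 1, against 2.59 to 2.75 on every other array. Its other probes differed between groups by -0.037, 0.10 and 0.086, and it by -0.22. Psma8, the alpha subunit of germ cells, was at the floor: its 2 probes read from -7.83 to -7.22 in PNP samples and from -7.92 to -7.67 in controls, never well above background, so no fold is given. Germ cell markers were mixed, with Ddx4, Sycp3 and Prm2 well above background on all 6 arrays and Prm1, Acrv1 and Stra8 on none of 8 listed. Their summed signal ran from 1.71 to 1.92 in PNP samples and from 1.52 to 2.34 in controls, in units of the 75th percentile of an array.

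Among the beta subunits without catalytic activity, Psmb3 had the smallest p of all members. Its signals were 3.14, 2.95 and 2.93 in PNP samples, against 2.83, 2.75 and 2.81 in controls. All PNP values lay above all control values, the difference was 0.21 (95% interval -0.012 to 0.43, limma adjusted p = 0.789) with an unadjusted p of 0.0610, and PNP replicate 1 was the highest. It stayed positive under every alternative processing tried, from 0.10 to 0.34, with no call in any. Psmb4, by contrast, had 1.47, 1.45 and 1.59 in PNP samples, against 1.69, 1.501 and 1.63 in controls, a difference of -0.10 (95% interval -0.33 to 0.12, limma adjusted p = 0.939). That value comes from the dimmer of its probes, since the brighter was left out for outlier spots. With those spots kept, the brighter probe gave 0.046, so the sign of Psmb4 is unsettled. Psmb2 differed by 0.014 (SE 0.13), and Psmb1, left out for outlier spots, by 0.13 with them kept.

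The constitutive catalytic subunits differed by -0.041 to 0.11, and none passed. Psmb5, the subunit with chymotrypsin-like activity, had 2.83 and 2.84 in PNP replicates 2 and 3, against 2.93, 2.80 and 2.89 in controls, a difference of -0.041 (95% interval -0.29 to 0.21, limma adjusted p = 0.967). With the marked spot of PNP replicate 1 kept it stood at 0.022. Psmb6, the caspase-like subunit, had 3.28, 3.12 and 3.12 in PNP samples, against 3.19, 3.20 and 3.12 in controls, a difference of 0.0043 (95% interval -0.21 to 0.22, limma adjusted p = 0.998), and its other probe gave 0.094. PNP replicate 1 was its highest array and the other PNP values lay within the controls. Psmb7, the trypsin-like subunit, had 1.93 and 1.75 in PNP replicates 1 and 2, against 1.74, 1.59 and 1.86 in controls, a difference of 0.11 (95% interval -0.19 to 0.41, limma adjusted p = 0.949). Its groups overlapped, since control replicate 3 lay between the PNP values.

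Nor did the subunits that replace them in the immunoproteasome pass the test, and Psmb8 and Psmb9 scattered widely between arrays. Psmb8, which takes the place of Psmb5, had -2.16, -2.71 and -2.42 in PNP samples, against -2.15, -2.47 and -2.56 in controls, a difference of -0.037 (95% interval -0.42 to 0.34, limma adjusted p = 0.982). The groups covered almost the same range, and PNP replicate 2 was the lowest array. Psmb9, which takes the place of Psmb6, had 0.41, -0.10 and 0.39 in PNP samples, against 0.23, 0.24 and 0.13 in controls, a difference of 0.031 (95% interval -0.30 to 0.37, limma adjusted p = 0.983). Here PNP replicates 1 and 3 lay above every control and PNP replicate 2 below every control, so that the PNP SD of 0.29 (n = 3) was the largest of any tested member. Psmb10, in place of Psmb7, had 2.18, 2.28 and 2.06 in PNP samples, against 2.17, 2.16 and 2.08 in controls, a difference of 0.035 (95% interval -0.19 to 0.26, limma adjusted p = 0.969), and for it PNP replicate 2 was the highest array.

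The signs of Psmb8 and Psmb9 each turned when single arrays were left out. Psmb8 stood at 0.10 without PNP replicate 2 and Psmb9 at -0.057 without PNP replicate 1, both without a call. Without PNP replicate 2, Psmb9 stood at 0.20. Psmb11, the catalytic subunit of the thymus, was likewise never well above background. Its probe read from -7.71 to -7.39 in PNP samples, against -6.00 on control replicate 1 and -7.82 and -7.84 on the other controls.

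**Figure D3:**
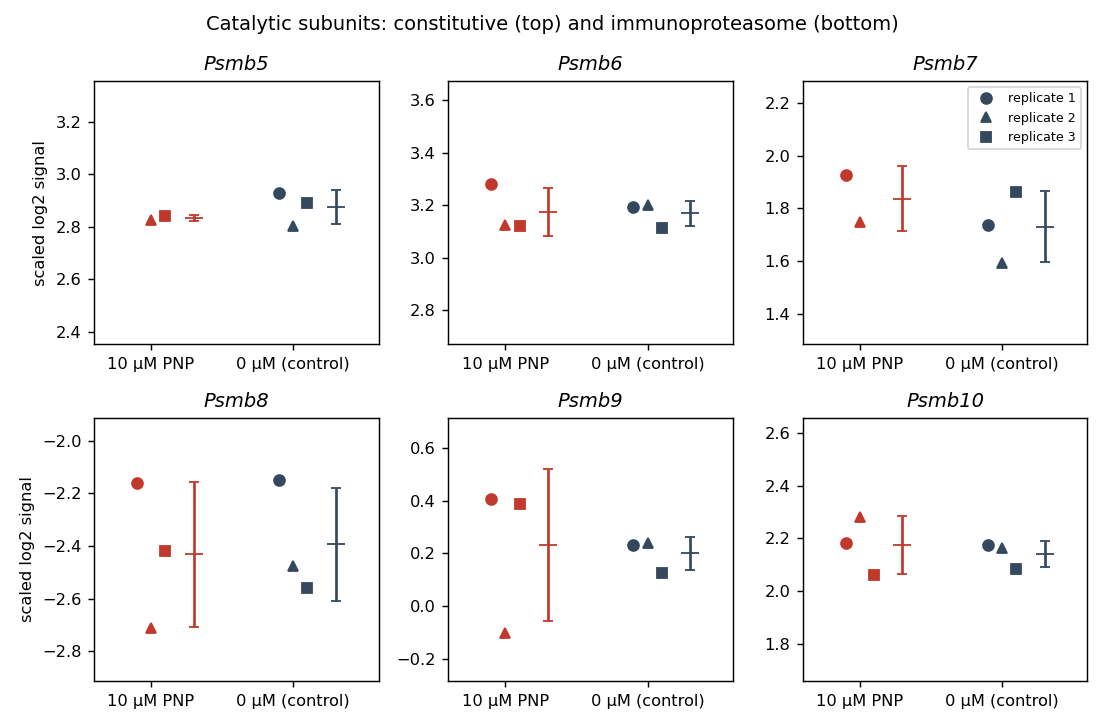
Scaled log2 signals (vertical axis, the same span of 1 log2 unit in each panel) of the constitutive catalytic subunits above and their immunoproteasome counterparts below, for PNP samples and controls, with the mean and SD beside the points. Psmb8 and Psmb9 scatter widest, and PNP replicate 2 is lowest for both.

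Genes beside the immunoproteasome were read for the same question. Of 10 listed genes of antigen presentation 8 were tested, with 6 positive and 2 negative differences, 0 calls and a median of 0.057. Tap1, which pumps peptides into the endoplasmic reticulum and shares a promoter region with Psmb9, had -0.04 and 0.24 in PNP replicates 2 and 3, against 0.27, 0.48 and 0.26 in controls, a difference of -0.24 (95% interval -0.56 to 0.082, limma adjusted p = 0.864). Tapbp, which tethers that pump to class I molecules, had 2.88 and 2.93 in PNP replicates 1 and 3, against 2.83, 2.55 and 2.57 in controls, a difference of 0.25 (95% interval -0.044 to 0.55, limma adjusted p = 0.811). Both sets of PNP values lay outside the controls, in opposite directions, and neither passed. Markers of leukocytes, which are rich in immunoproteasomes, had a summed signal of 4.03 to 4.99 in PNP samples and 3.64 to 4.28 in controls over the listed genes, with Ptprc, Adgre1 and Tyrobp well above background on no array. Their part in these values was not tested.

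Of the ATPases of the regulatory particle, 3 of 4 tested members had a positive difference and none passed. Psmc1 had 2.94, 2.78 and 2.84 in PNP samples, against 2.80, 2.71 and 2.70 in controls, a difference of 0.12 (95% interval -0.10 to 0.33, limma adjusted p = 0.912). Only PNP replicate 2 fell below a control, control replicate 1. Psmc3 had 3.12, 2.97 and 2.95 in PNP samples, against 2.98, 2.89 and 2.94 in controls, a difference of 0.074 (95% interval -0.14 to 0.29, limma adjusted p = 0.950). Its probes disagreed, the dimmest standing at -0.0076. Psmc2 differed by 0.029 (SE 0.11) and Psmc4 by -0.047 (SE 0.13). Psmc5 and Psmc6, left out for outlier spots, stood at 0.014 and 0.16 with those spots kept, where every spot of Psmc6 had been marked.

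The other subunits of the regulatory particle had 9 of 10 tested members positive and a median of 0.084. Psmd4, a receptor for ubiquitin chains, had 3.19, 2.90 and 2.99 in PNP samples, against 2.96, 2.83 and 2.82 in controls, a difference of 0.15 (95% interval -0.10 to 0.40, limma adjusted p = 0.900). PNP replicate 1 lay well above the rest and the groups overlapped. Its other tested probe gave 0.14. Psmd1, a large scaffold of the base, had 2.40 and 2.38 in PNP replicates 1 and 3, against 2.26, 2.19 and 2.30 in controls, a difference of 0.14 (95% interval -0.10 to 0.39, limma adjusted p = 0.900), with both PNP values above every control. Its other probes were left out for outlier spots. With those spots kept, the brightest gave 0.0068 and the dimmest -0.16, so the size and sign for Psmd1 are unsettled.

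Psmd7, the partner of the deubiquitinase, had 2.79, 2.71 and 2.73 in PNP samples, against 2.69, 2.63 and 2.71 in controls, where the lowest PNP value stood just above the highest control, for a difference of 0.071 (95% interval -0.13 to 0.27, limma adjusted p = 0.949). Psmd11 had 2.44 and 2.45 in PNP replicates 2 and 3, against 2.27, 2.37 and 2.36 in controls, again without overlap, for a difference of 0.11 (95% interval -0.13 to 0.36, limma adjusted p = 0.937). Among the rest, with SEs of 0.092 to 0.12, stood Psmd2 at 0.10, also a base scaffold, whose other probe gave -0.20, Psmd3 at 0.051, Psmd12 at 0.12, Psmd13 at 0.026, Psmd14, the deubiquitinase itself, at 0.053, and Psmd6 at -0.041. Psmd8 was left out for outlier spots and stood at -0.094 with them kept. The median of these 10 genes with quantile normalization was 0.0083, and in the authors' values it was -0.0011, so the sign of the median depends on the scaling.

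**Figure D4:**
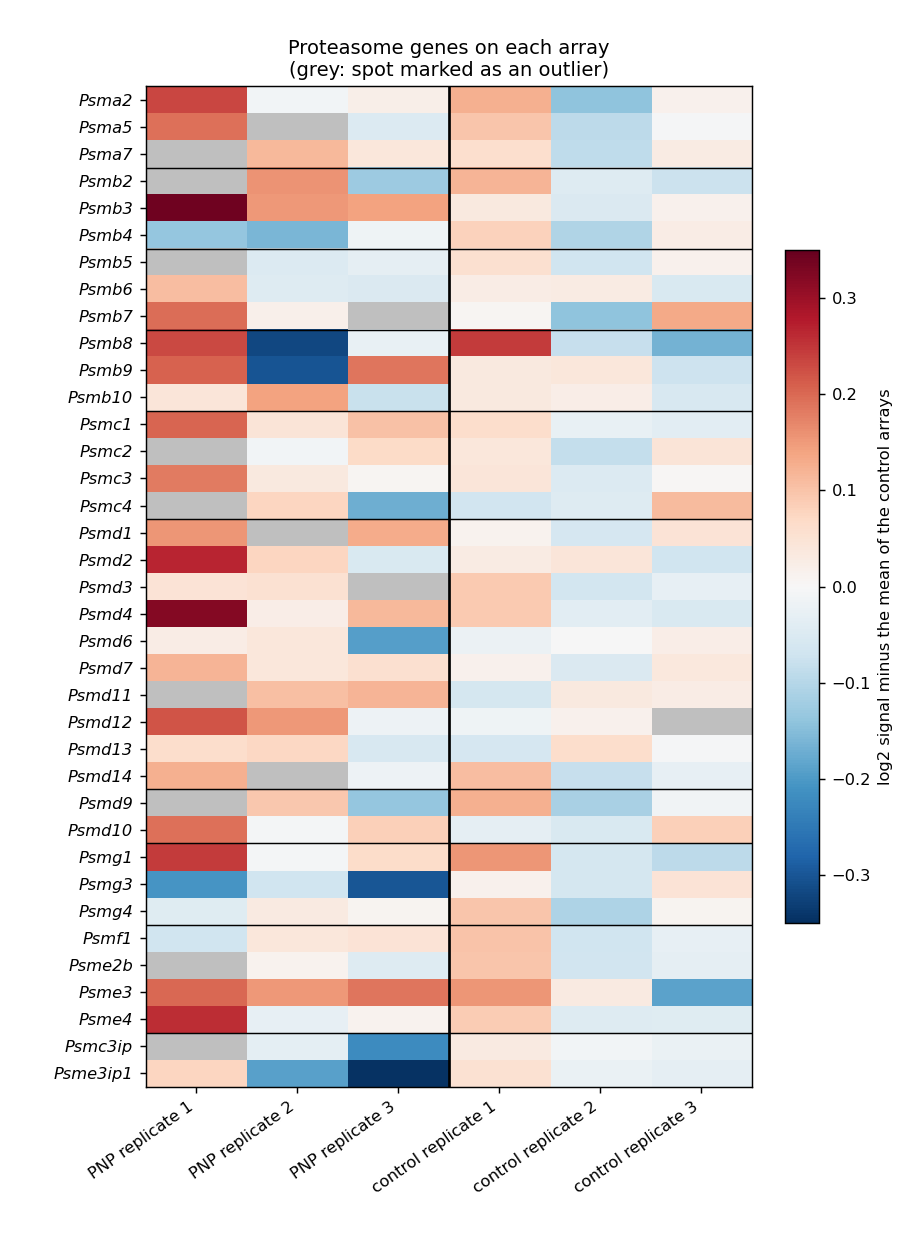
Scaled log2 signal of each tested member on each array, minus the mean of its control arrays, as colour (red above, blue below, grey for spots marked as outliers). PNP replicate 1 is red for most rows, while Psmg3 is blue on all 3 PNP arrays.

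Assembly factors held the lowest value of any true proteasome gene. Psmg3, which with Psmg4 helps to build the alpha ring, had 1.34, 1.48 and 1.25 in PNP samples, against 1.56, 1.49 and 1.596 in controls. All PNP values lay below all control values, narrowly so for PNP replicate 2 and control replicate 2, and the difference was -0.19 (95% interval -0.42 to 0.036, limma adjusted p = 0.811). It stayed negative in every alternative tried, from -0.25 to -0.14, with no call in any. Its unadjusted limma p was 0.088 in the reported fit. That p was 0.046 with median scaling, 0.047 with quantile normalization, 0.049 in the authors' values and 0.035 without PNP replicate 2. In every other alternative it was above 0.05. Psmg4, its partner, had 2.03, 2.11 and 2.08 in PNP samples, against 2.17, 1.97 and 2.09 in controls and differed by -0.00059 (SE 0.10).

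Psmg1, which pairs with Psmg2 in the same task, had 2.44, 2.19 and 2.26 in PNP samples, against 2.35, 2.14 and 2.11 in controls, a difference of 0.10 (95% interval -0.16 to 0.36, limma adjusted p = 0.946), with overlapping groups and its other probe at -0.040. Psmg2, left out for outlier spots, stood at 0.081 with them kept. Of the chaperones that assemble the base, Psmd10 (gankyrin) had 1.501, 1.30 and 1.39 in PNP samples, against 1.28, 1.26 and 1.39 in controls, a difference of 0.089 (95% interval -0.14 to 0.31, limma adjusted p = 0.946), and Psmd9 had 1.21 and 0.98 in PNP replicates 2 and 3, against 1.24, 1.00 and 1.11 in controls, a difference of -0.020 (95% interval -0.32 to 0.28, limma adjusted p = 0.986). In both the groups overlapped. Psmd5 stood at -0.16 with its outlier spots kept.

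Of the activators, Psme3, the cap of nuclear proteasomes, was the highest. It had 3.01, 2.96 and 3.00 in PNP samples, against 2.97, 2.84 and 2.62 in controls, a difference of 0.18 (95% interval -0.073 to 0.43, limma adjusted p = 0.871). The PNP values were close together, and control replicate 3 was low, while control replicate 1 lay within the PNP range. Psme4, the activator linked to chromatin and sperm formation, had 2.66, 2.37 and 2.41 in PNP samples, against 2.49, 2.36 and 2.36 in controls, a difference of 0.081 (95% interval -0.17 to 0.33, limma adjusted p = 0.951). Its second tested probe gave -0.10. Psmf1, an inhibitor of the core particle in vitro, differed by 0.0064 (SE 0.10). Psme2b, a retrotransposed copy of the interferon-induced activator Psme2, differed by -0.016 (SE 0.11), and how far its probes read Psme2 itself is uncertain. Psme1, the partner of Psme2, stood at 0.044 with its outlier spots kept.

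The genes caught by the symbol rule alone both had negative differences, without a call. Psmc3ip had 1.95 and 1.77 in PNP replicates 2 and 3, against 2.02, 1.98 and 1.97 in controls, a difference of -0.13 (95% interval -0.39 to 0.13, limma adjusted p = 0.926), with no overlap. With outlier spots kept, a brighter probe gave -0.017. Psme3ip1 had 1.16, 0.90 and 0.74 in PNP samples, against 1.14, 1.07 and 1.06 in controls, a difference of -0.15 (95% interval -0.43 to 0.13, limma adjusted p = 0.912), where PNP replicate 1 lay above every control. Without them 26 of 35 tested members were positive and the median was 0.053.

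Members with separated groups were counted beside the same share over all genes. Among members with all 6 values, PNP lay wholly above the controls in 2 of 22 (Psmb3 and Psmd7), against 9.15% of all such genes, and wholly below in 1 of 22 (Psmg3), against 2.3%. Different probes of a gene often disagreed in sign: of 10 members with several tested probes, 4 had 1 sign throughout and 6 had both.

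Position on the slide was compared as well. Array positions in the file headers gave odd columns to PNP replicate 2 and control replicates 1 and 3, and even columns to PNP replicates 1 and 3 and control replicate 2. Within odd columns 18 of 34 members were positive with a median of 0.0057, and within even columns 28 of 37 with a median of 0.11. Over all genes the medians were 0.0096 and 0.080. With the column as a block, 0 members passed and the median was 0.060, against 0.032 over all genes. With the slide row as a block, where PNP replicate 1 alone shares a row with the controls, 28 members could be fitted. Their median was 0.19, against 0.10 over all genes.

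Factors around the proteasome gave the same picture of small differences. Of 20 listed partners (among them receptors that shuttle ubiquitinated proteins, deubiquitinases of the cap and assembly factors) 16 were tested, 11 positive and 5 negative, with 0 calls and a median of 0.030. Uchl5, a deubiquitinase bound to the cap, had 2.26, 2.35 and 2.25 in PNP samples, against 2.21, 1.99 and 2.07 in controls, a difference of 0.19 (95% interval -0.030 to 0.42, limma adjusted p = 0.811). Ufd1, which with Vcp extracts proteins for degradation, had 1.65 and 1.71 in PNP replicates 2 and 3, against 1.84, 1.80 and 1.85 in controls, a difference of -0.15 (95% interval -0.39 to 0.090, limma adjusted p = 0.889). In both the PNP values lay outside the controls, upward for Uchl5 and downward for Ufd1.

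Of 6 genes for ubiquitin and its activating enzymes 4 were tested, 3 of them positive, with 0 calls. Ubb, a polyubiquitin gene, had 4.10, 4.05 and 3.85 in PNP samples, against 3.82, 3.78 and 3.83 in controls, a difference of 0.19 (95% interval -0.041 to 0.42, limma adjusted p = 0.830). All 3 PNP values lay above the controls.

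The genes by which cells answer proteasome inhibition came last. Of 6 listed (Nfe2l1, Ddi2, Ngly1, Nfe2l2, Keap1 and Bach1) 5 were tested, 3 positive and 2 negative, with 0 calls. Nfe2l1, whose protein NRF1 is cut by Ddi2 and drives proteasome genes, had -2.31, -1.92 and -2.39 in PNP samples, against -2.55, -2.61 and -2.54 in controls. The PNP values lay above the controls, PNP replicate 2 most. The difference was 0.36 (SE 0.13, 95% interval 0.058 to 0.67), with an unadjusted p of 0.0252 and a limma adjusted p of 0.740. Nfe2l1 was the only gene of the pathway lists with an unadjusted p below 0.05, where 5.02% of all genes stood on the higher side. Its values under the alternative processings are not given here, so how far they depend on the scaling is not shown. Nfe2l2, the related factor NRF2, had -1.46, -2.27 and -1.60 in PNP samples, against -2.10, -1.66 and -1.90 in controls, a difference of 0.11 (95% interval -0.38 to 0.60, limma adjusted p = 0.960).

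The 6 genes whose promoter stretches are printed had no common direction. Psmb5, Psmb6, Psmd9, Psmd12 and Psme4 differed by -0.041, 0.0043, -0.020, 0.12 and 0.081, and Psmc6 by 0.16 with outlier spots kept, all without a call.

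**Figure D5:**
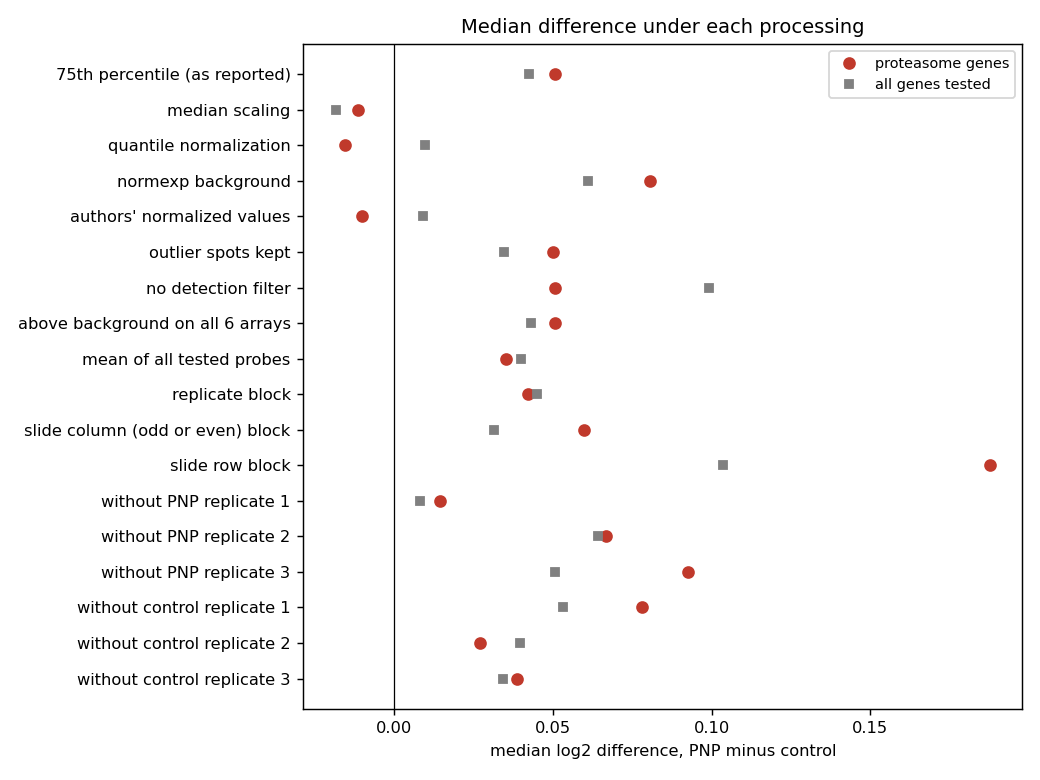
Median log2 difference (horizontal axis, PNP minus control) over the proteasome members and over all genes tested, under each processing. The members' medians run from -0.015 to 0.19, and the highest is that with the slide row as a block, which sets PNP replicate 1 against the controls.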

How the data were processed

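Intensity values were read from the deposited scanner files, written by Agilent Feature Extraction 11.5.1.1 per the file headers. The version in the submitters' processing notes is 10.7. Background had been subtracted from this processed signal, and spatial and multiplicative trends removed within each array, per the file headers, with no scaling between arrays. Its columns are of the red channel, whereas the dye in the labels is Cy3. The authors' deposited normalized values are on a log2 scale, since each column tracked the log2 scanner signal of its array (r from 0.9996 to 1). Columns had a median of 8.27 and, once sorted, were within 0.000955 of each other. The sources used here do not say how that table was made. Columns this alike once sorted are what quantile normalization gives. The authors' values and the quantile setting are therefore not independent checks of each other.

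Processed signals were taken to log2, scaled on the 75th percentile of their own array (control spots aside), freed of spots marked as outliers and averaged per probe. A probe was tested if well above background on all 3 arrays of a group and with at least 2 values per group. Unversioned accessions matched to RefSeq (GRCm38.p6) named 33767 of 56605 probes, and the array design is on mm9. The brightest tested probe stood for a gene. Genes were fitted with limma 3.58.1 in R 4.3.3 (data.table, version 1.17.8) without covariates, and two-sided p-values were adjusted by Benjamini-Hochberg over 13138 genes, with a threshold of 0.05. The scanner files read here hold no mean signal column, so normexp was run on the median signal, a departure from the plan. The procedure was tested on simulated data. No spot was saturated.

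The members, gene lists and rule for named genes were chosen with earlier results of these data known. By that rule, values on all arrays are given for the 2 members of smallest p in each role, all catalytic subunits and any member with separated groups and p below 0.05, and for 2 genes per pathway list, of which 1 is not reported here. Psmd7, Psmd11 and Psmg4 were added after their values were seen. Alternatives were other scalings, background correction, filters, probe choice, blocks and leaving out each replicate.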

Additional observations from a re-analysis of the deposited data

How the results depend on the processing

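The count of 0 called members held under all alternatives run. At an unadjusted limma p below 0.05 there were 0 members in the reported fit, where 6.52% of all genes stood. The slide row block, which sets PNP replicate 1 alone against the controls, is left aside here. In any other setting there was at most 1 member, and the share of all genes ran from 2.62% to 13.3%. The count of positive members was 17 with median scaling, 15 with quantile normalization and 15 in the deposited normalized table, and ran from 22 to 29 when a replicate was left out. It was 38 of 48 with outlier spots kept (79.2%, against 60.4% of all genes). With the slide row as a block it was 24 of 28 (85.7%, against 68.5% of all genes). The members' median ran from 0.014 to 0.092 without 1 replicate each, and was 0.19 (0.084 relative to all genes) with the slide row as a block. Relative to all genes it ran from -0.012 to 0.042 without 1 replicate each, and was -0.049 with no filter on dim probes. With the replicate block the members' median was 0.042 (-0.0028 relative to all genes), with 0 calls, and no call changed. Deviations of same-numbered samples correlated at -0.31, -0.22 and -0.026 over 11110 genes. PNP replicate 1 with control replicate 2 gave 0.24, and PNP replicate 2 with control replicate 1 gave 0.27. Those pairs share a column parity. So do PNP replicate 2 with control replicate 3, at 0.0078, and PNP replicate 3 with control replicate 2, at 0.037. The part of the slide column in these correlations was not tested. No same-numbered samples share a column parity, so replicate number and column cannot be told apart. These correlations therefore cannot decide whether samples were paired, and the reported fit did not pair them. Of 370 alternative values of the 22 members chosen by rule, 34 had the other sign, none with a call. Median scaling gave -0.011 for Psma7, -0.025 for Psmb10, -0.056 for Psmb6 and -0.029 for Psmb9. Quantile normalization gave -0.033 for Psma2, -0.0025 for Psmb10, -0.12 for Psmb6 and -0.040 for Psmc3. Normexp background correction gave -0.024 for Psme4. The authors' values gave -0.029 for Psma2, -0.010 for Psma7, -0.0026 for Psmb10, -0.12 for Psmb6 and -0.036 for Psmc3. Keeping outlier spots gave 0.046 for Psmb4 and 0.022 for Psmb5. The mean of all tested probes gave -0.0041 for Psme4. The replicate block gave 0.042 for Psmd9. The slide column block gave -0.016 for Psmb6, -0.062 for Psmb9 and 0.012 for Psmd9. The slide row block gave 0.23 for Psmb8 and 0.074 for Psme3ip1. Leaving out PNP replicate 1 gave -0.048 for Psmb6, -0.057 for Psmb9 and -0.0072 for Psme4. Leaving out PNP replicate 2 gave -0.018 for Psmb10 and 0.10 for Psmb8. Leaving out PNP replicate 3 gave -0.047 for Psmb9 and 0.094 for Psmd9. Leaving out control replicate 1 gave 0.085 for Psmb8 and 0.042 for Psmd9. Leaving out control replicate 3 gave -0.023 for Psmb6 and -0.0048 for Psmb9. Over all settings without 1 replicate these members ran from -0.018 to 0.092 for Psmb10, -0.048 to 0.032 for Psmb6, -0.17 to 0.10 for Psmb8, -0.057 to 0.20 for Psmb9, -0.13 to 0.094 for Psmd9 and -0.0072 to 0.14 for Psme4. The cause of these turns was not tested. Signal over background, outlier marks, scaling and the number of arrays each limit these values, and their shares were not tested.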
